A study of Mus musculus with 8 samples.

Results

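Intercalated cells are the acid and base transporting cells of the connecting tubule and collecting duct. Type A cells secrete acid into the urine through an apical proton pump and return bicarbonate to the blood through the exchanger AE1, while type B cells secrete bicarbonate through the exchanger pendrin. Both types depend on the forkhead transcription factor Foxi1 and on kidney forms of the vacuolar proton pump (V-ATPase). Rh glycoproteins carry ammonia in the collecting duct. The 10 genes described here were taken by symbol from the 25240 rows of the count table. Slc26a4, Slc4a9 and Insrr belong to type B cells and Slc4a1 and Aqp6 to type A cells. Foxi1, Atp6v1g3, Atp6v0d2, Rhcg and Rhbg were grouped as shared intercalated cell genes. For Rhcg and Rhbg this does not mean that type B cells make them. All 10 were among the 14284 genes with enough counts to be tested.

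RNA was measured in 8 libraries of kidney cells from p16-tdTomato mice, all of which had chronic kidney disease brought on by a diet rich in adenine. Of these, 4 libraries held Tomato-negative and 4 held Tomato-positive cells, and no library came from a mouse without the disease. The genotype name joins p16, an inhibitor of the cell cycle used as a mark of senescence, with a red fluorescent protein. The sources used here do not state how the reporter was built, how cells were sorted, or the age, sex and number of the mice. Each identifier (CKD523_2, CKD523_3, CKD627_1, CKD627_2) named 1 library of each group, and values are listed below in that order. The labels do not explain the identifiers or the prefixes CKD523 and CKD627. They do not say that libraries came from separate animals, so the p-values cover only the spread between these libraries, which may be technical.

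Total counts per library ranged from 13474439 to 19886202. Levels are given as CPM, counts scaled to a common library total that is adjusted by TMM (a factor that evens out differences in composition), so that 1 CPM stood for 13.0 to 20.6 counts. tdTomato lay between 87.3 and 152 CPM in the Tomato-negative and between 3227 and 4188 CPM in the Tomato-positive libraries, as the labels say. The labels name every library as proximal tubular epithelial cells. The summed level of 12 proximal tubule markers lay between 9657 and 16502 CPM in the CKD523 libraries and between 2656 and 4746 CPM in the CKD627 libraries. That of 8 thick ascending limb markers lay between 1869 and 4803 CPM in the CKD523 libraries. In the CKD627 libraries it lay between 5610 and 14480 CPM. The 10 intercalated cell genes took up 0.0354 to 0.32% of all counts, and every one of them had counts in every library. In bulk RNA, fewer cells of a type and less RNA per cell cannot be told apart.

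The 3 type B genes were all lower in Tomato-positive than in Tomato-negative cells, in each of the 4 pairs, while both type A genes were higher in each pair by amounts that did not pass the test. Of all genes tested, 17.6% were lower and 18% were higher in all 4 pairs. With libraries paired by identifier, 4 of the 10 genes fell (Slc26a4, Slc4a9, Insrr and Atp6v1g3) and none rose, where 3.81% of all genes tested fell and 3.82% rose (edgeR quasi-likelihood test, adjusted p under 0.05). At an unadjusted p under 0.05, 9 of the 10 passed with the pairing, against 25% of all genes. Without the pairing none of the 10 passed in edgeR, where 0.595% of all genes did. At an unadjusted p under 0.05 there were 3, against 17.8% of all genes. Unpaired DESeq2 called Slc26a4 alone (7% of all genes), and unpaired limma-voom called none (0.644% of all genes), with 2 at an unadjusted p under 0.05 (18.4% of all genes). Within a group, the levels differed many-fold between identifiers, and for all 10 genes the groups overlapped. Of all genes tested, 6.48% had every Tomato-positive library below every Tomato-negative one and 6.74% had every one above. Each adjusted p in what follows is from edgeR over all genes tested.

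**Figure D1:**
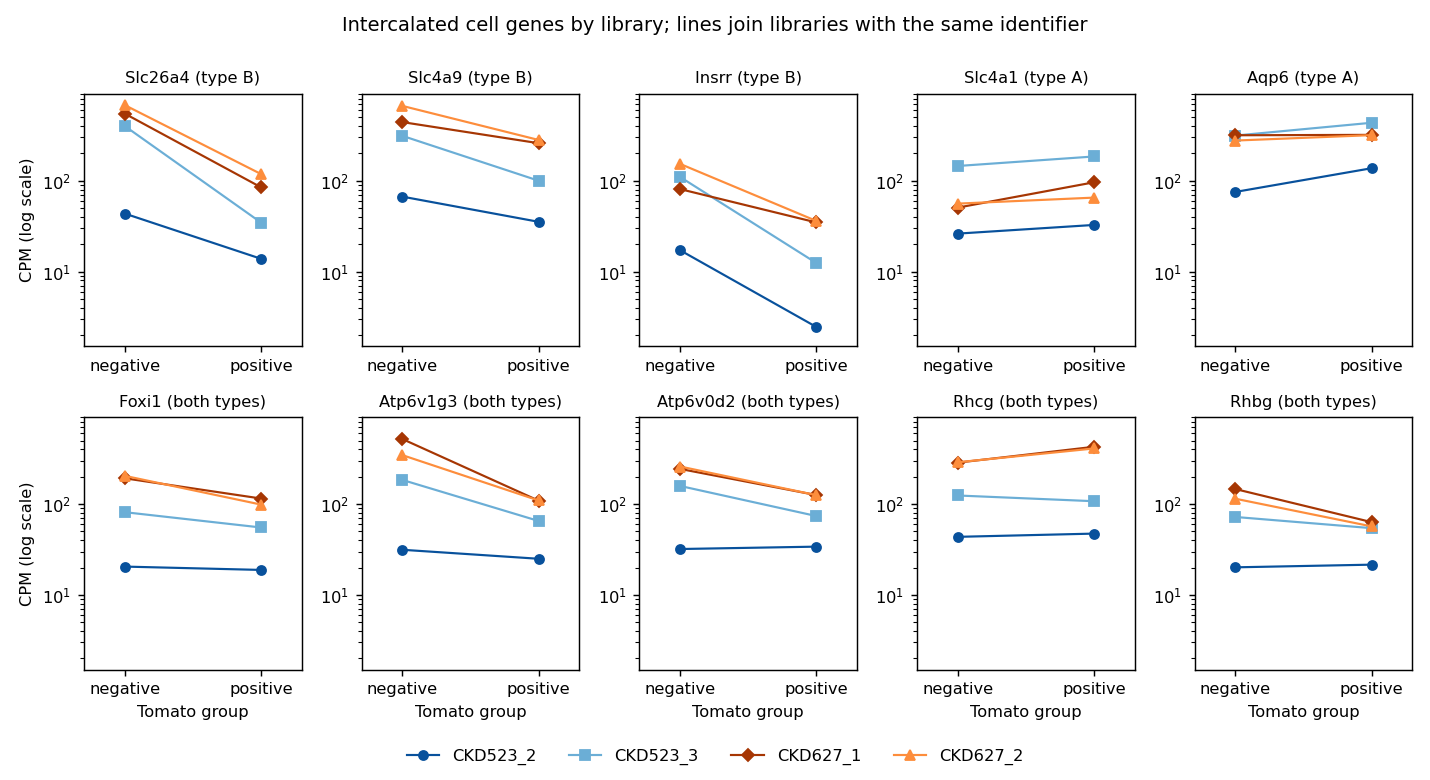
CPM on a log scale (vertical axis) of the 10 intercalated cell genes in the Tomato-negative and Tomato-positive libraries, 1 panel per gene, with lines that join the 2 libraries of an identifier. All 4 lines fall for Slc26a4, Slc4a9, Insrr, Foxi1 and Atp6v1g3 and none falls for Slc4a1 and Aqp6, while the CKD523_2 libraries lie lowest in every panel.

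Slc26a4 encodes pendrin, the apical exchanger through which type B cells take up chloride and release bicarbonate. It lies on the minus strand of chromosome 12 (31519827 to 31559969, mm10). Its level was 43.5, 400, 548 and 680 CPM in the Tomato-negative libraries and 13.8, 34.7, 84.8 and 119 CPM in the Tomato-positive libraries. Every Tomato-positive library lay below its partner, by a log2 difference of -1.64, -3.52, -2.69 and -2.52. The groups overlapped only through the Tomato-negative library CKD523_2, in which the whole set of genes was low. In the paired fit pendrin fell 6.13-fold (log2 -2.62 ± 0.27, SE, with 95% bounds of -3.23 and -2.0, adjusted p = 0.00196, and 0.148 unpaired).

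Slc4a9 encodes AE4, an anion exchanger of the basolateral membrane of type B cells. Its Tomato-negative libraries held 66.8, 312, 442 and 666 CPM and its Tomato-positive libraries 35.3, 100, 259 and 281 CPM. The fall was smaller than that of pendrin, with a log2 difference of -1.15 ± 0.17 (SE) and 95% bounds of -1.53 and -0.76 (paired adjusted p = 0.00731, 0.446 unpaired). Every Tomato-positive library lay below its partner, though the groups overlapped. Insrr, a receptor related to the insulin receptor that responds to alkaline fluid outside the cell, was at 17.2, 110, 80.9 and 153 CPM in Tomato-negative cells. In Tomato-positive cells it was at 2.46, 12.4, 34.8 and 36.1 CPM, which left both CKD523 libraries below every Tomato-negative library. Insrr fell 4.81-fold in the paired fit (log2 -2.27 ± 0.30, SE, adjusted p = 0.00483, and 0.231 unpaired).

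Slc4a1 encodes AE1, the chloride and bicarbonate exchanger of the basolateral membrane of type A cells, which is also the band 3 protein of red blood cells. The Tomato-negative libraries held 26.2, 145, 50.6 and 56.0 CPM of it, and their Tomato-positive partners 32.6, 185, 96.1 and 65.2 CPM. Each Tomato-positive library lay above its partner, and the groups overlapped across identifiers. The paired log2 difference of 0.45 ± 0.16 (SE) had 95% bounds of 0.10 and 0.81 and did not pass over all genes (adjusted p = 0.114, and 0.735 unpaired). These bounds lay wholly above those of the 3 type B genes. Of 9 red cell markers chosen after these values were seen, 6 had no count in any library, the globin genes among them, which have close copies that a counter may leave out. The 9 summed to between 14 and 98 counts per library, against 346 to 3209 counts of Slc4a1.

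Aqp6, a water and anion channel of vesicles inside type A cells, had the same direction. Tomato-negative libraries were at 75.3, 314, 317 and 277 CPM and their partners at 137, 435, 320 and 318 CPM. The CKD627_1 libraries were nearly level (log2 difference 0.01) and those of CKD523_2 differed most (0.87). The paired log2 difference was 0.38 ± 0.16 (SE), with 95% bounds of 0.01 and 0.75 (adjusted p = 0.185, and 0.77 unpaired). Higher values in all 4 pairs were seen for 2 of the 10 genes, these 2, and for 18% of all genes tested. Lower values in all 4 pairs were seen for 5 of the 10 and for 17.6% of all genes.

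**Figure D2:**
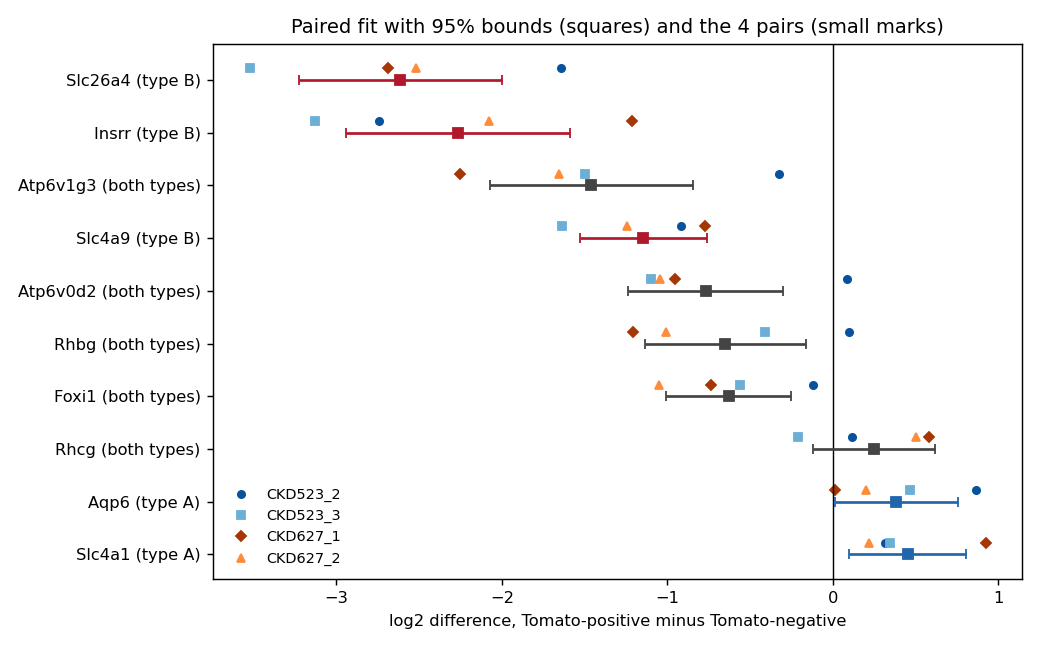
Log2 difference of Tomato-positive minus Tomato-negative (horizontal axis) for the 10 intercalated cell genes. Squares are estimates of the paired fit with 95% bounds, small marks the 4 pairs. The type B genes lie between -2.62 and -1.15 and the type A genes at 0.38 and 0.45. The genes grouped as shared, labelled as both types, lie between -1.46 and 0.25.

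The contrast of the 2 types was also described within each library, as the ratio of pendrin to AE1 with each level taken per kilobase of merged exons (3109 bases for Slc26a4, 4891 for Slc4a1). In Tomato-negative cells the ratio was 2.61, 4.33, 17.0 and 19.1, and in Tomato-positive cells 0.668, 0.295, 1.39 and 2.86. Pendrin thus exceeded AE1 in all 4 Tomato-negative libraries and was below it in both Tomato-positive CKD523 libraries. The ratio was 3.91, 14.7, 12.3 and 6.67-fold lower in the Tomato-positive library of each pair, with a mean log2 difference of -3.05 ± 0.87 (SD, 4 pairs). The ratio of the median type B to the median type A level moved the same way, by -1.92 ± 0.50 on the log2 scale (SD, 4 pairs). No test is given for these ratios, since the genes were chosen with their results known.

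**Figure D3:**
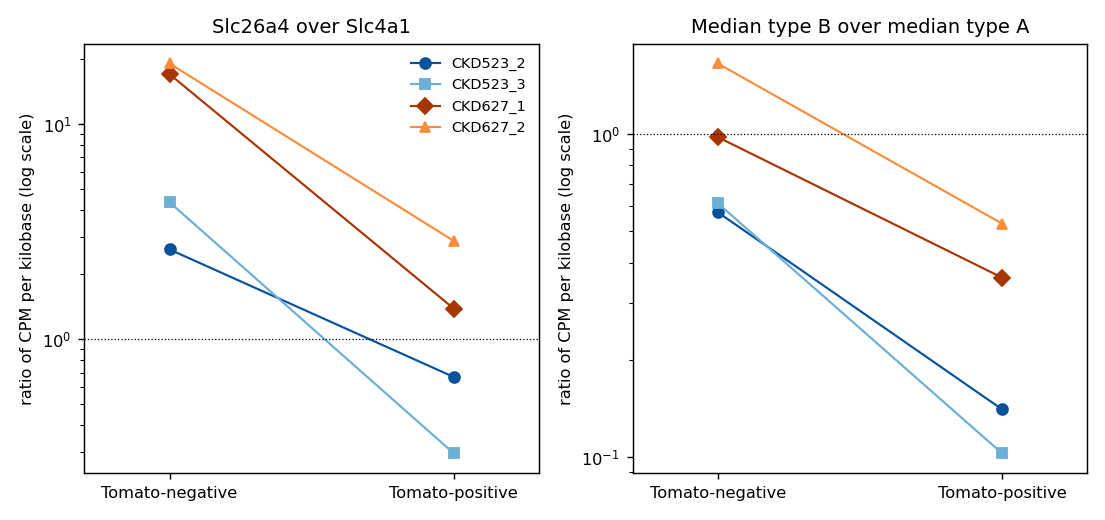
Ratio of Slc26a4 to Slc4a1 (left) and of the median of 3 type B genes to the median of 2 type A genes (right), from CPM per kilobase on a log axis, in the 8 libraries. Lines join the libraries of an identifier, and all 4 fall in both panels, from 2.61 to 0.668 for CKD523_2 and from 19.1 to 2.86 for CKD627_2 in the left one.

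Per kilobase, the order of the genes differed between the groups. In Tomato-negative cells Slc26a4 had the highest median (152 CPM per kilobase, range 14 to 219), followed by Atp6v1g3 (140), Aqp6 (122) and Rhcg (91.9), and Slc4a1 had the lowest (10.9, range 5.35 to 29.7). In Tomato-positive cells Aqp6 (132, range 56.7 to 179) and Rhcg (116, range 21.2 to 191) led, Slc26a4 was the eighth (19.2, range 4.45 to 38.2) and Insrr the last (4.13, range 0.431 to 6.32). Neighbours in either order had overlapping ranges over the 4 libraries, except Slc4a1 (lowest 6.67) and Insrr (highest 6.32) at the end of the Tomato-positive order.

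Foxi1, the transcription factor on which the identity of intercalated cells depends, measured 20.5, 81.4, 192 and 205 CPM without Tomato and 18.8, 55.3, 115 and 98.8 CPM with it. It was lower in all 4 pairs, least in CKD523_2. The paired log2 difference was -0.63 ± 0.17 (SE) and stood just outside the threshold (adjusted p = 0.0558, and 0.593 unpaired). It passed in the paired DESeq2 fit (adjusted p = 0.00748) and in paired limma-voom (adjusted p = 0.0225), in which 7 of the 10 genes fell, against 7.39% and 5.01% of all genes.

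Forkhead proteins share a core motif, TGTTT, and Foxi1 is known to act on the genes of the intercalated proton pump and of pendrin. RefSeq promoters (GRCm38.p6, the same assembly as mm10) were at hand for 5 of the 10 genes. Those of 2 genes that fell (Slc26a4 and Atp6v1g3) and 2 that did not (Aqp6 and Rhcg) are shown, picked with their results known. Any link between the motif and the differences was not tested. Each is the 250 bases before the start site, 5′ to 3′ on the strand of the gene, and capitals mark TGTTT or its reverse complement AAACA.
Slc26a4 (chr12:31559985-31560234, minus strand): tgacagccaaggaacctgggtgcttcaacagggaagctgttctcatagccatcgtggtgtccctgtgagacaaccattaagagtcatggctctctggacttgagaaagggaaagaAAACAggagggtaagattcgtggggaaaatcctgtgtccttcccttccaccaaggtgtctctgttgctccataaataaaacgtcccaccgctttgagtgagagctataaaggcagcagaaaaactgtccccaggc
Atp6v1g3 (chr1:138273488-138273737, plus strand): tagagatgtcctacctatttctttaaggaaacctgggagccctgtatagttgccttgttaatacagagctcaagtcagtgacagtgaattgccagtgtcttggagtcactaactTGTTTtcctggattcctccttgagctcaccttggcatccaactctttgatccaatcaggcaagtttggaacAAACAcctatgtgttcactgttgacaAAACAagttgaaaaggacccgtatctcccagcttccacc
Aqp6 (chr15:99600950-99601199, plus strand): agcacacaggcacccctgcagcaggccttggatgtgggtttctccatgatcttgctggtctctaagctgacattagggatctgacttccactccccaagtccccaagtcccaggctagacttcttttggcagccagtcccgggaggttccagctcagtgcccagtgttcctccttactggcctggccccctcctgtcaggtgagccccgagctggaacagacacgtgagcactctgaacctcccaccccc
Rhcg (chr7:79617658-79617907, minus strand): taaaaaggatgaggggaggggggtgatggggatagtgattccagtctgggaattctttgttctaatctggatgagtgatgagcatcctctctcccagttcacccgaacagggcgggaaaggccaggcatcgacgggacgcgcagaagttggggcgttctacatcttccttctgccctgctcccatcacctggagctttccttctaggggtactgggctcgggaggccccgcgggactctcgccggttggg

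The Slc26a4 window held 1 match, at -135 to -131 from the start site, and the Atp6v1g3 window held 3. Those of Aqp6 and Rhcg held none. That of Foxi1, whose letters are not shown, held 1, so that 3 of 5 windows had the core. Foxi1 was lower in all 4 pairs and did not pass in the paired edgeR fit (adjusted p = 0.0558), though it passed in paired DESeq2 and limma-voom. On either strand TGTTT was found in 46.4% of 32851 promoter windows of the same length. The longer motif TGTTTNC, which contains the core, was also found in 3 of the 5 and in 17.8% of all windows. These matches are letters in a window and not measured binding.

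Atp6v1g3 encodes a kidney form of the G subunit in the V1 domain of the proton pump, the part that splits ATP. Tomato-negative libraries held 31.4, 184, 520 and 345 CPM of it, and Tomato-positive libraries 25, 65.2, 109 and 110 CPM. The log2 difference was small in CKD523_2 (-0.33) and lay between -2.25 and -1.50 in the other pairs. Atp6v1g3 fell 2.75-fold in the paired fit (log2 -1.46 ± 0.27, SE, adjusted p = 0.0163, and 0.247 unpaired). This call was lost without the pair CKD523_3 (adjusted p = 0.0775) or CKD627_2 (0.0826), while those of the 3 type B genes held without any 1 pair.

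Atp6v0d2 encodes a d subunit of the V0 domain, through which protons pass. Its levels were 32.0, 158, 244 and 259 CPM without Tomato and 34.0, 73.9, 126 and 125 CPM with it. The CKD523_2 pair was nearly level, and the other 3 pairs differed by -1.10, -0.96 and -1.05 on the log2 scale. The paired log2 difference of -0.77 ± 0.21 (SE) did not pass (adjusted p = 0.0565, and 0.437 unpaired). Without the pair CKD523_2 it was -1.04 and passed (adjusted p = 0.017).

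Rhcg and Rhbg carry ammonia across the apical and basolateral membranes, and both are made in principal cells as well as in intercalated cells. Rhcg measured 43.6, 124, 286 and 289 CPM without Tomato and 47.3, 108, 427 and 409 CPM with it. It was higher in 3 pairs and lower in CKD523_3, with a paired log2 difference of 0.25 ± 0.16 (SE, adjusted p = 0.375, and 0.808 unpaired). Rhbg measured 20.1, 72.1, 146 and 114 CPM without Tomato and 21.5, 54.3, 63.3 and 56.8 CPM with it. Its paired log2 difference was -0.65 ± 0.22 (SE), lower in 3 pairs (adjusted p = 0.104, and 0.437 unpaired). The Rhbg values carry a doubt, since 1190 bases of its exons are shared with the annotated gene Gm38392 on the same strand.

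The prefixes were compared because they split the libraries. Over both Tomato groups, 6 of the 10 genes were higher in the CKD627 libraries (Slc26a4, Slc4a9, Foxi1, Atp6v1g3, Atp6v0d2 and Rhcg), against 9.66% of all genes. None was lower, as 11.4% of all genes were, and 8 passed in either direction at an unadjusted p under 0.05 (32.3% of all genes). Rhcg differed most, by 2.10 ± 0.33 on the log2 scale (SE, adjusted p = 0.00122). This fit took the Tomato-negative and Tomato-positive libraries of an identifier as independent, so its p-values and counts may overstate the evidence. Slc4a1 did not pass (-0.56 ± 0.52, adjusted p = 0.513), and its highest values were those of CKD523_3. The CKD523_2 libraries were lowest for every one of the 10 genes in both groups.

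Within prefix CKD627, 7 of the 10 genes fell in Tomato-positive cells (1.23% of all genes), all but Slc4a1, Aqp6 and Rhcg. Within CKD523, Slc26a4 and Insrr fell (8.33% of all genes). Pendrin differed by -3.18 in CKD523 and -2.62 in CKD627, AE1 by 0.34 and 0.57, and Atp6v1g3 by -1.25 and -2.02 on the log2 scale. These fits of each prefix alone left out the pairing. With the pairing, the difference of pendrin between the prefixes was 0.05 ± 0.48 on the log2 scale (SE). The test of the difference between the prefixes called none of the 10 genes in edgeR, unpaired (0.014% of all genes) or with the pairing (0.14%), and none in DESeq2. At an unadjusted p under 0.05 there were 0 of the 10 unpaired (13.2% of all genes) and 5 with the pairing (13.8%). The largest such difference with the pairing was that of Insrr, 1.36 ± 0.35 (SE, adjusted p = 0.147), whose fall was smaller in CKD627.

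Of 18 further genes of intercalated cells, 6 fell and none rose in the paired fit, while unpaired none passed in edgeR (5 at an unadjusted p under 0.05) and 2 in DESeq2. The median paired log2 difference was -0.44, against 0.01 for all genes tested and -0.71 for the 10 genes above. Hmx2, a homeobox gene of type B cells, fell most (29.7 ± 26.3 to 5.28 ± 5.69 CPM, SD, n = 4 per group, log2 -2.76 ± 0.32, SE, paired adjusted p = 0.0029). Oxgr1, the receptor for 2-oxoglutarate on type B cells, fell by 1.39 ± 0.18 on the log2 scale (SE, paired adjusted p = 0.0041). Also lower were the pump subunit Atp6v1c2 (-1.59, paired adjusted p = 0.023) and Hepacam2 (-1.26, paired adjusted p = 0.0136), a surface protein of intercalated cells.

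Other genes of the list did not share this direction or did not pass, and those given here were picked out after their values were seen. Kit, Dmrt2 and Slc26a7, known from type A cells, had paired log2 differences of 0.29, 0.42 and 0.88, higher in 4 of 4 pairs each, and none passed (paired adjusted p = 0.3, 0.236 and 0.213). Slc26a7 was low, with means of 2.60 CPM without Tomato and 4.58 CPM with it. Higher values in all 4 pairs were seen for 3 of the 18 genes (18% of all genes tested), and lower values for 9 (17.6% of all genes). P2ry14, also known from type A cells, was near 0 (-0.02, lower in 3 of 4 pairs), and Clnk was at -1.80, lower in 4 of 4 pairs (paired adjusted p = 0.984 and 0.347). Other pump subunits of the intercalated cell were Atp6v0a4 (log2 -0.57 ± 0.15, SE, paired adjusted p = 0.0496) and Atp6v1b1 (-0.49 ± 0.16, paired adjusted p = 0.0993), both lower in 4 pairs. Car2, the cytosolic carbonic anhydrase that supplies protons and bicarbonate in both types, averaged 680 ± 149 CPM without Tomato and 516 ± 88.5 CPM with it (SD, 4 libraries each) and did not pass (paired adjusted p = 0.131). Car12, a membrane carbonic anhydrase, fell by 0.68 on the log2 scale (paired adjusted p = 0.0297).

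**Figure D4:**
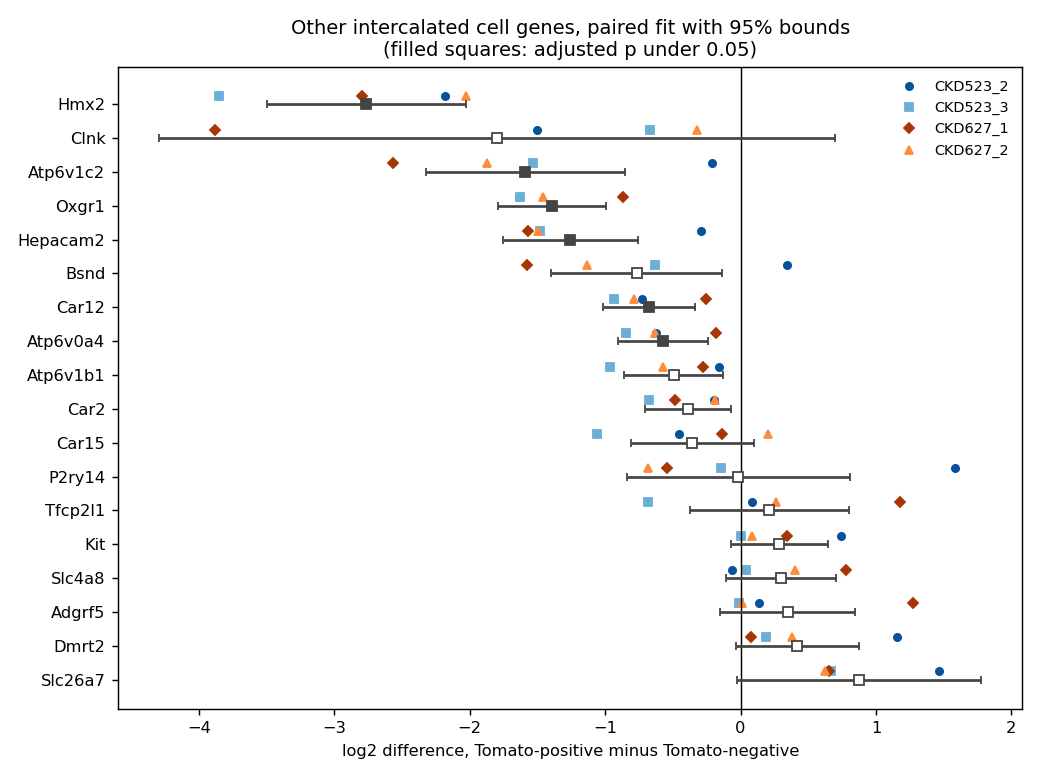
Log2 difference of Tomato-positive minus Tomato-negative (horizontal axis) for 18 further intercalated cell genes, with paired estimates and 95% bounds (squares, filled where the adjusted p was under 0.05) and the 4 pairs (small marks). The 6 filled squares all lie below 0, from Hmx2 at -2.76 to Atp6v0a4 at -0.57, and Kit, Dmrt2 and Slc26a7 lie above 0.

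Of 17 V-ATPase subunits made in most cells, 3 fell in the paired fit and none rose, with a median of -0.39. Unpaired none passed in edgeR (7 at an unadjusted p under 0.05) and 4 in DESeq2. The 3 that fell in the paired fit were Atp6v1e1 (log2 -0.74 ± 0.13, SE, paired adjusted p = 0.0144), Atp6v1d (-0.65, paired adjusted p = 0.0316) and Atp6v1h (-0.67, paired adjusted p = 0.0407), all of the V1 domain. Atp6v0b of the V0 domain was also lower in 4 of 4 pairs (-0.58 ± 0.16, SE) and did not pass (paired adjusted p = 0.0676). It passed in paired DESeq2 (adjusted p = 0.00815) and in paired limma-voom (adjusted p = 0.0433). Lower values in all 4 pairs were seen for 10 of the 17 (17.6% of all genes tested). Atp6v0d1, the widely made form of the d subunit, averaged 148 ± 11.6 CPM without Tomato and 142 ± 5.70 CPM with it (SD, 4 libraries each, paired adjusted p = 0.825).

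Markers of other cell types of the tubule moved with the Tomato groups. Of 13 principal cell markers 11 rose and none fell in the paired fit, and their sum rose in every pair, from 507, 660, 2845 and 2191 CPM to 1315, 2333, 6044 and 6074 CPM. Of 11 distal convoluted and connecting tubule markers 7 fell, and of 8 markers of the thick ascending limb 7 fell, with none higher. Unpaired, edgeR called 2 principal cell markers higher and none of the markers of the other 2 lists (4, 7 and 3 at an unadjusted p under 0.05), and DESeq2 called 3, 6 and 2. The summed levels of the 3 type B genes were 128, 822, 1071 and 1499 CPM in Tomato-negative and 51.6, 147, 378 and 436 CPM in Tomato-positive cells. Those of the 2 type A genes were 101, 459, 367 and 333 CPM, then 170, 619, 416 and 383 CPM. Of 12 proximal tubule markers 4 fell in the paired fit and none passed unpaired in edgeR (3 at an unadjusted p under 0.05, and 2 in DESeq2). Within CKD523, 10 of the 12 fell (median log2 -0.88), and within CKD627 1 fell (median 0.34). Their sum went from 16502 to 10306 and from 16415 to 9657 CPM in the CKD523 pairs, and from 2656 to 2964 and from 3833 to 4746 CPM in the CKD627 pairs. Of 6 leukocyte markers 2 rose in the paired fit and none unpaired in edgeR (2 at an unadjusted p under 0.05, and 1 in DESeq2). None of 7 endothelial markers passed in edgeR or DESeq2, paired or unpaired, with 0 at an unadjusted p under 0.05. None of 5 mesenchymal markers passed in edgeR, with 2 at an unadjusted p under 0.05 in either fit, and DESeq2 called 2 paired and 0 unpaired. The part of these other cell types in the differences of the intercalated cell genes was not tested.

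**Figure D5:**
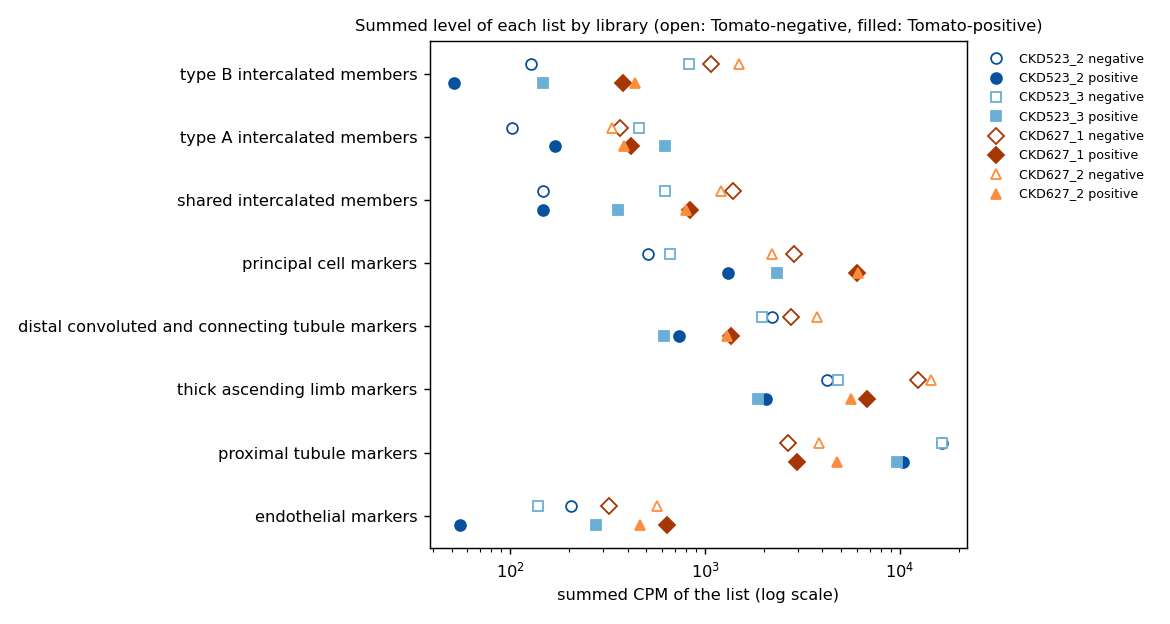
Summed CPM (horizontal log axis) of the type B, type A and shared intercalated cell genes and of 5 lists of markers of other cell types, in each of the 8 libraries (open marks Tomato-negative, filled marks Tomato-positive). The filled marks of the type B genes lie left of their open partners (128 to 51.6 CPM for CKD523_2), while those of the type A genes and of the principal cell markers lie right of them.

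The genes most like pendrin over the 8 libraries were sought among 11306 genes with a mean of at least 5 CPM. Among the closest were Emb (Pearson 0.98 on log2 CPM), Pygm (0.97), the glucose transporter gene Slc2a4 (0.97) and Syn2 (0.97). Emb averaged 126 ± 65.7 CPM without Tomato and 48.5 ± 21.4 CPM with it (SD, 4 libraries each). The genes most like Slc4a1 were less close to it, with Il15ra (0.90), Cpeb2 (0.89) and Cdh4 (0.88) first. These are descriptions over libraries that share prefix, Tomato group and depth. Among the 10 genes, Slc26a4 and Slc4a1 had a Pearson correlation of 0.19, Slc26a4 and Insrr one of 0.97, and Foxi1 and Atp6v0d2 one of 0.98.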

How the data were processed

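The authors deposited raw counts per gene symbol for 8 libraries. Reads were aligned with subread, per the file headers, and the build mm10, edgeR 3.32.1 and limma 3.46.0 are named in the submitters' processing notes. The sources used here do not name the annotation, the strand setting or the treatment of reads with several matches. Total counts of 13474439 to 19886202 limit the precision, and without molecular identifiers a count is of reads, not of molecules.

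Genes were kept with filterByExpr (a count of at least 10 in 4 libraries and 15 in all), which left 14284. Tomato-positive and Tomato-negative counts were compared with edgeR 4.0.16 in R 4.3.3, with TMM factors and the 2-sided quasi-likelihood test, Benjamini-Hochberg adjustment over all genes and a threshold of 0.05. Standard errors were the difference over the root of F. The fit without the pairing was set as the main one, and the fit with the identifier as a replicate block (the paired fit) is given beside it. After removal of group means, the 2 libraries of an identifier correlated across genes at 0.46, 0.32, 0.33 and 0.47 (limit for pairing 0.1). Libraries of the same prefix but another identifier correlated at 0.30 to 0.47, so identifier and prefix pair the libraries to a like degree. The test of the difference between prefixes used the interaction of group and prefix, and the comparison of prefix levels, added later, had the Tomato group as a covariate. Fits were tested on simulated data. Log2 CPM had a prior count of 2. Exon lengths and positions came from GENCODE M21 and promoters from RefSeq.

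The 10 genes and all lists were chosen with earlier results of these data known. Named genes were the 10, up to 5 with the smallest paired p per list, and the 5 most correlated with Slc26a4 and with Slc4a1. Car2, Atp6v0d1, Atp6v0a4, Atp6v1b1, Kit, Dmrt2, Slc26a7, P2ry14 and Clnk were named outside this rule, after their values were seen, and 2 genes the rule gave are not reported here. Alternatives were other scalings, filters, DESeq2 1.42.0, limma-voom 3.58.1, each prefix alone, the prefix as a covariate, and leaving out each library or pair.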

Additional observations from a re-analysis of the deposited data

Results flagged for a closer look

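In the Tomato-negative group, the Aqp6 level of library CKD523_2 was 75.3 CPM and stood apart from the other 3 libraries, which lay between 277 and 317 CPM. It was the single sample apart among 20 groups of 4 libraries checked (10 genes in 2 Tomato groups), where chance alone marks about 1 group in 20. The same library had the lowest Tomato-negative level of the other 9 genes.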

How the results depend on the processing

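With the replicate block, the count of the 10 genes that fell was 4, against 0 unpaired, and that of all genes past the threshold was 1089, against 85. With the prefix as a covariate the counts were 3 and 1527, in prefix CKD523 alone 2 and 2236, in CKD627 alone 7 and 347, and in unpaired DESeq2 1 and 1000. Without any filter 45 genes passed unpaired, and without any 1 library 6 to 26 did, with none of the 10 among them. In the paired fit, 7 of the 10 fell by DESeq2 and 7 by limma-voom, where 7.39% and 5.01% of all genes fell. Past the threshold in either direction were 2026 genes by DESeq2 and 1389 by limma-voom. Without 1 pair, 3 to 5 of the 10 fell, while 203 to 1319 of all genes passed in either direction (fewest without CKD523_3). Upper-quartile scaling and the 2 other filters of the paired fit were added after seeing the data. With the scaling 4 of the 10 fell, without any filter 6 and with the stricter filter 4. All genes past the threshold in either direction were 1088, 1408 and 1112 in these fits. The difference between prefixes called 2 genes, 20 with the replicate block and 280 in DESeq2, none of them among the 10. Signs of unpaired differences turned in 3 cases, Slc4a1 without the Tomato-positive library CKD523_3 (-0.11, range -0.11 to 1.09 without any 1 library), Aqp6 without the Tomato-negative library CKD523_2 (-0.0085, range -0.0085 to 0.53) and Rhcg in prefix CKD523 alone (-0.12). The cause was not tested. In the paired fit no sign turned in any of the 10 genes. The mean log2 difference of the type B over type A medians was -2.81 without length scaling. That of pendrin over AE1 lay between -3.41 and -2.77 without any 1 pair.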

Other observations

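Bicarbonate and chloride exchangers outside the 10 genes had no common direction. Of 10 tested, 3 rose and 1 fell in the paired fit, while unpaired none passed in edgeR (3 at an unadjusted p under 0.05) and 2 in DESeq2. Slc4a5, a sodium bicarbonate cotransporter, averaged 3.91 ± 1.44 CPM without Tomato and 15.4 ± 7.53 CPM with it (SD, 4 libraries each), and rose by a log2 difference of 1.90 ± 0.27 (SE, edgeR paired adjusted p = 0.0062, 0.0696 unpaired). Slc4a7, another sodium bicarbonate cotransporter, and the sulfate transporter gene Slc26a2 rose as well (1.05 and 1.34, paired adjusted p = 0.0251 and 0.0311). Slc4a11 fell by 0.80 on the log2 scale (paired adjusted p = 0.0396).

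Of 9 tested genes of other carbonic anhydrases and of the H,K-ATPase, 3 fell and none rose in the paired fit, while unpaired none passed in edgeR (1 at an unadjusted p under 0.05) and 1 in DESeq2. Car4, a membrane-anchored carbonic anhydrase of the tubule, averaged 117 ± 53.7 CPM without Tomato and 41.0 ± 14.1 CPM with it (SD, 4 libraries each), and fell by 1.46 ± 0.15 on the log2 scale (SE, edgeR paired adjusted p = 0.0018). Atp4a, the catalytic subunit of the H,K-ATPase, fell by 1.37 ± 0.25 (SE, paired adjusted p = 0.0155), and Car14 fell by 0.72 (paired adjusted p = 0.0424).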
